A study of Mus musculus with 8 samples.

Results

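Eomesodermin (Eomes) and 8 genes linked to memory or killing by CD8 T cells, Cd44, Il2rb, Ly6c2, Gzmk, Gzma, Gzmb, Prf1 and Klrd1, were followed in CD8 T cells, natural killer (NK) cells and CD4 T cells of the mouse spleen. The 9 genes were taken by symbol, and each matched 1 of the 32285 genes measured. They were proposed because of how their levels in these T and NK cells differed between the genotypes, so their differences in the libraries of total splenocytes are given as a description, without a test. Single-cell RNA was collected in 8 libraries, 2 for each of 4 groups, from mice of 2 months of age. The cKO mice were Eif3e fl/fl Cγ1Cre Rosa26-YFP LSL, and the control mice were littermates that carried Cγ1Cre and the Rosa26-YFP LSL reporter without the floxed Eif3e alleles, all on C57BL/6J. Total splenocytes and sorted YFP+ cells were taken from each genotype in each of 2 batches. Each sample pooled cells of 2 to 3 mice of its genotype, so a library is a pool of mice. Whether the total and the YFP+ library of a batch came from the same mice is not stated in the sources used here. The sample labels name the spleen, whereas the study's harvest protocol also names lymph nodes. Cells of lymph nodes, if they were included, cannot be told apart from those of the spleen. Cγ1Cre is active in B cells after activation, so T and NK cells were not the cells in which Eif3e was meant to be deleted. Eif3e itself stood at 326.9 and 370.2 counts per 1000000 UMIs (CPM) in CD8 T cells of the control total libraries and at 304.6 and 354.5 CPM in those of the cKO total libraries. In NK cells it was at 195.5 and 256.9 CPM in control and 177.7 and 245.9 CPM in cKO, and these overlapped as in CD8 T cells. Both cKO libraries lay below both control libraries in CD4 T cells (266.2 and 301 CPM against 302.7 and 357.3 CPM), a difference of -0.34 on the log2 scale that did not pass (adjusted p = 0.657, edgeR).

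Eomes is a transcription factor of the T-box family, closely related to T-bet, the product of Tbx21. It is needed for NK cell maturation and for the maintenance of memory CD8 T cells, in part through Il2rb, which encodes the receptor chain shared by interleukin-2 and interleukin-15. Cd44, an adhesion receptor for hyaluronan, and Ly6c2, a small surface protein, rise on CD8 T cells with antigen experience or homeostatic cytokines. Gzma, Gzmb and Gzmk encode granzymes, serine proteases stored in killing granules, and Prf1 encodes perforin, which lets granzymes into a target cell. Klrd1 encodes CD94, which pairs with NKG2 proteins to form receptors for the nonclassical MHC molecule Qa-1.

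In the GRCm38 assembly, Eomes lies on chromosome 9 (118478212 to 118486132, plus strand), Prf1 on chromosome 10 (61297833 to 61304680, plus strand) and Klrd1 on chromosome 6 (129591782 to 129598775, plus strand). Gzmk (113171608 to 113225908) and Gzma (113093825 to 113100981) are neighbours on the minus strand of chromosome 13, and Gzmb is on chromosome 14 (56258838 to 56262260, minus strand). Cd44 is on chromosome 2 (102811141 to 102901665), and Ly6c2 (75108158 to 75111970) and Il2rb (78479256 to 78495271) are on chromosome 15, all on the minus strand. Promoters from RefSeq (GRCm38.p6, from 250 bases before to 50 bases after the start) were held for 7 of the 9 genes, and none was used for Il2rb or Klrd1. The core of the element bound by T-box factors, AGGTGT or its reverse complement ACACCT, was searched for on both strands and was found in the promoters of 3 of these 7 genes, Gzmk, Gzma and Prf1, and in 13.7% of all 32851 promoters. The promoter of Eomes and those of the granzyme genes whose levels differed most between the genotypes in CD8 T cells are shown in the direction of transcription, Eomes at chr9:118477939-118478238 (plus strand), Gzmk at chr13:113180916-113181215 (minus strand) and Gzma at chr13:113100932-113101231 (minus strand), with the matches in capitals.
Eomes: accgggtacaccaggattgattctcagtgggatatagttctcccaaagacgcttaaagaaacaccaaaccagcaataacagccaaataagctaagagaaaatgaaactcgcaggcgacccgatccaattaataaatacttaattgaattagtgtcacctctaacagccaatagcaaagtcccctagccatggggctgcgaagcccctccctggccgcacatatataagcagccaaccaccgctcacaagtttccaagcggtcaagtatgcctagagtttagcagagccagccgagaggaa
Gzmk: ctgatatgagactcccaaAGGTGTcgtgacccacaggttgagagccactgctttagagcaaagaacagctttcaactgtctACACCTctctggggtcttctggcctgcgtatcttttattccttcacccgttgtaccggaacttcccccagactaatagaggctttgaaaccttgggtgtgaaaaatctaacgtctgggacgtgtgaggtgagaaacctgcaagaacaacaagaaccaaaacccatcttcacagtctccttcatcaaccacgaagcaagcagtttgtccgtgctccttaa
Gzma: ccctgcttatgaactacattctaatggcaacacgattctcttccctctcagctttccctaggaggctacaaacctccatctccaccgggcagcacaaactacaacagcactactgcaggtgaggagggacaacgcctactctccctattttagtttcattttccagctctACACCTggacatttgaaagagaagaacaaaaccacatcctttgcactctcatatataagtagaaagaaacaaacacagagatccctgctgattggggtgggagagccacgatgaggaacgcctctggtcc
The Gzmk window held 2 matches, the Gzma window 1 and the Eomes window 0. A match describes the letters of the window and not a bound site.

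After removal of cells with few molecules or a high mitochondrial share, 83704 of 83967 barcodes remained, with 71894780 to 105224903 unique molecular identifiers (UMIs) per library and a median of 5250 to 6810.5 UMIs per cell. Any 2 libraries shared 51 to 102 cell barcodes. CD8 T cells numbered 1055 and 1256 in the control total libraries and 798 and 763 in the cKO total libraries. NK cells numbered 184 and 230 in control and 149 and 113 in cKO, and CD4 T cells 978 and 842 in control and 1087 and 1503 in cKO. The class labels were checked against defining markers. Cd8b1 stood at 759.4 to 1038 CPM in the CD8 T cell class, where Ncr1, an NK receptor, was at 0.471 to 2.33 CPM, and Ncr1 stood at 839.3 to 1088 CPM in the NK class, where Cd3e was at 4.94 to 18.5 CPM. The cKO total library of batch 1 stood apart in that Xist, transcribed from the inactive X chromosome of females, reached 402 CPM in its CD8 T cells against 0.223 to 0.332 CPM in the other 3 total libraries. The Y-linked gene Ddx3y was at 61.4 CPM in that library and at 76.3 to 130.6 CPM in the others. In CD8 T cells without that library, the difference between cKO and control (log2 scale) was 2.44 for Eomes, 0.25 for Cd44, 1.16 for Il2rb, 3.72 for Gzmk, 5.82 for Gzma and -1.41 for Klrd1. In CD4 T cells it was 2.14 for Eomes, 0.85 for Cd44, 1.27 for Il2rb, -3.64 for Klrd1 and -1.07 for Prf1.

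In CD8 T cells of total spleen, Eomes was higher in both cKO libraries than in either control library. Its level, as CPM of the summed UMIs of the class scaled between libraries, was 33.9 and 47.4 in control and 127.9 and 221.1 in cKO, or 40.7 ± 9.55 against 174.5 ± 65.9 (SD, n = 2 pools each). Pairs of values are given in the order of batch 1 and batch 2 throughout, and Eomes was higher in cKO within each batch. The difference was 2.10 on the log2 scale with a standard error (SE) of 0.355, and the groups did not overlap. Without the cKO library of batch 2 it was 1.65, and with classes taken from cluster names alone 3.50. Of the 9 genes, 5 (Eomes, Cd44, Il2rb, Gzmk and Gzma) were higher in both cKO libraries than in both control libraries, Klrd1 was lower in both, and the groups overlapped for Ly6c2, Gzmb and Prf1. Over all 11476 genes of this comparison, 14.2% lay above in both cKO libraries and 13.7% lay below in both, and since the genes were chosen on this contrast nothing is read from their count. Because each value sums a class of cells, fewer cells with a transcript and less of it in each cell cannot be told apart from these sums. B cell markers summed to 68.3 and 119.9 CPM in control CD8 T cells and to 68.0 and 101.9 CPM in cKO, with 0 of 6 markers above or below in both cKO libraries. Plasma cell markers summed to 29.8 and 43.4 CPM in control and 39.9 and 94.3 CPM in cKO, with 3 of 6 above in both. Their part in the results was not tested.

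**Figure D1:**
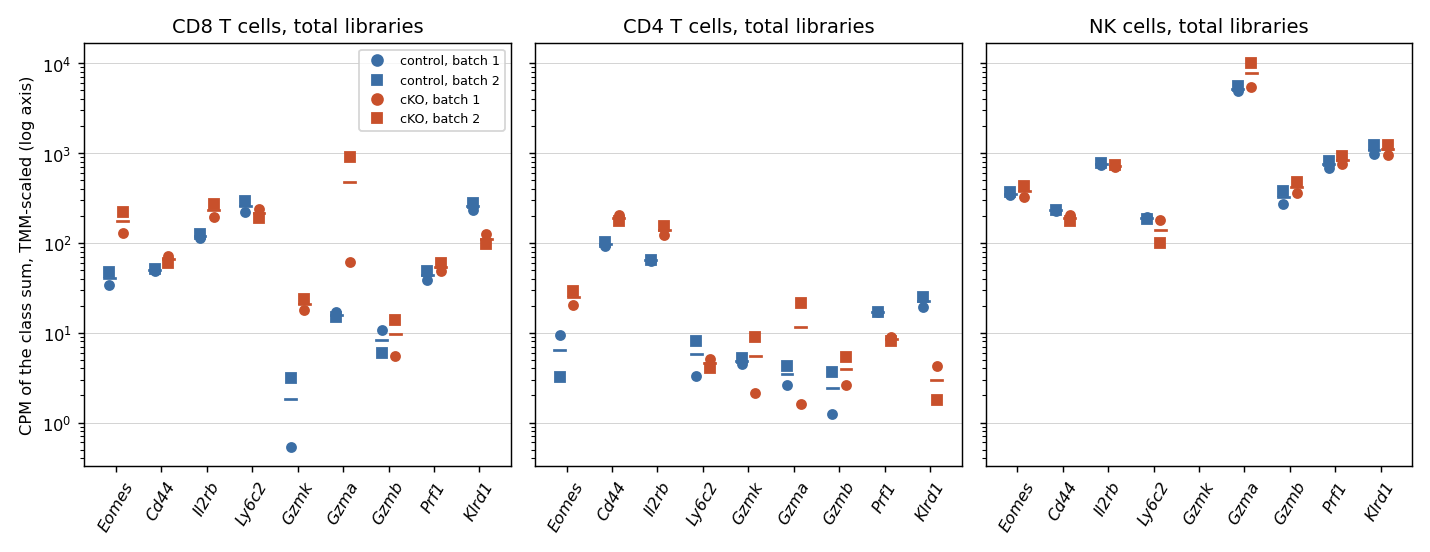
Level of each of the 9 genes (log axis, CPM of the class sum) in CD8 T, NK and CD4 T cells of the 4 total libraries, 1 point per library, with control in blue and cKO in red, the batches as circles and squares and the group mean as a dash. Gzmk in NK cells, under the filter on low counts, is not drawn. In CD8 T cells the cKO points of Eomes, Gzmk and Gzma lie above the control points and those of Klrd1 below, whereas in NK cells the Eomes points of the genotypes overlap.

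Among the surface molecules of memory cells, Il2rb was at 113.7 and 125.8 CPM in control CD8 T cells and at 191.9 and 267.5 CPM in cKO, a difference of 0.94 (SE 0.290) on the log2 scale with no overlap. Cd44 was at 48.7 and 50.8 CPM in control and at 71.6 and 58.9 CPM in cKO, a smaller difference of 0.39 (SE 0.240). The Cd44 difference moved from 0.25 without the cKO library of batch 1 to 1.78 with classes taken from cluster names alone, and it was 0.71 with a gate on UMIs alone and 0.63 without cells with a B cell UMI. With cluster names alone the Il2rb difference was 1.87. Ly6c2 was at 220.3 and 292.6 CPM in control and at 239.9 and 190.1 CPM in cKO, so that the libraries overlapped. Its difference of -0.25 (SE 0.298) turned to 0.49 with classes taken from cluster names alone. Ly6c1, a close paralog that could share reads with Ly6c2, was at only 0.942 to 2.44 CPM in CD8 T cells. Thus Il2rb and Cd44 lay above in both cKO libraries along with Eomes, and Ly6c2 did not.

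The killing genes divided. Gzmk was low in control CD8 T cells, at 0.534 and 3.10 CPM, and stood at 18.01 and 23.8 CPM in cKO, 3.53 higher on the log2 scale (SE 0.586). This difference was 2.75 without the control library of batch 1 and 5.25 without that of batch 2. Gzma was at 16.9 and 14.9 CPM in control and at 61.6 and 896 CPM in cKO. The size of the Gzma difference, 4.91 (SE 1.10), rested on the cKO library of batch 2, and without it the difference was 1.95, while it was 7.998 with classes taken from cluster names alone. Gzmb was at 10.8 and 5.97 CPM in control and 5.54 and 13.8 CPM in cKO, and Prf1 was at 38.6 and 48.8 CPM in control and 48.0 and 59.3 CPM in cKO. Both genes overlapped between the genotypes. Prf1 was nevertheless higher in cKO within each batch, with a difference of 0.30 (SE 0.250), and 0.30 with the replicate block. The Gzmb difference of 0.21 (SE 0.471) turned to -0.60 without the cKO library of batch 2 and to -0.16 without the control library of batch 2. It was 1.41 with a gate on UMIs alone and 1.45 without cells with a B cell UMI. Klrd1 differed in the other direction, at 234.1 and 279.6 CPM in control and 126.5 and 96.6 CPM in cKO, a difference of -1.20 (SE 0.289). The CD8 T cells of cKO spleens therefore held a larger part of their UMIs from Eomes, Gzmk and Gzma and a smaller part from Klrd1 than those of control spleens.

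The differences were also seen in the share of CD8 T cells with at least 1 UMI of a gene. When every cell was thinned to 3000 UMIs, an Eomes UMI was found in 6.82% and 8.84% of control CD8 T cells and in 23.5% and 37.6% of cKO CD8 T cells. Before thinning, these shares were 16.0% and 16.7% in control and 43.2% and 62.9% in cKO, at median depths of 8283, 6865, 7666.5 and 8828 UMIs per cell in the same order. B cells, which should not express Eomes, gave 0.109% to 0.289% of cells after thinning at median depths of 4664 to 6311.5 UMIs, which was taken as the level of free RNA. Marked doublets were not left out of these shares. Before thinning, at unlike depths, the B cell shares were 0.275% and 0.348% in control and 0.390% and 0.594% in cKO. After thinning they were 0.109% and 0.157% in control and 0.137% and 0.289% in cKO. This background was thus also higher in cKO within each batch, although the thinned shares of the genotypes overlapped. A Gzmk UMI was found in 0.192% and 0.487% of thinned control CD8 T cells and in 2.83% and 4.88% of cKO. A Gzma UMI was found in 1.25% and 1.05% of control cells and in 9.13% and 35.0% of cKO cells, against 0.635% to 1.47% of B cells. For Klrd1 the share was 46.7% and 49.3% in control and 27.1% and 21.2% in cKO.

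**Figure D2:**
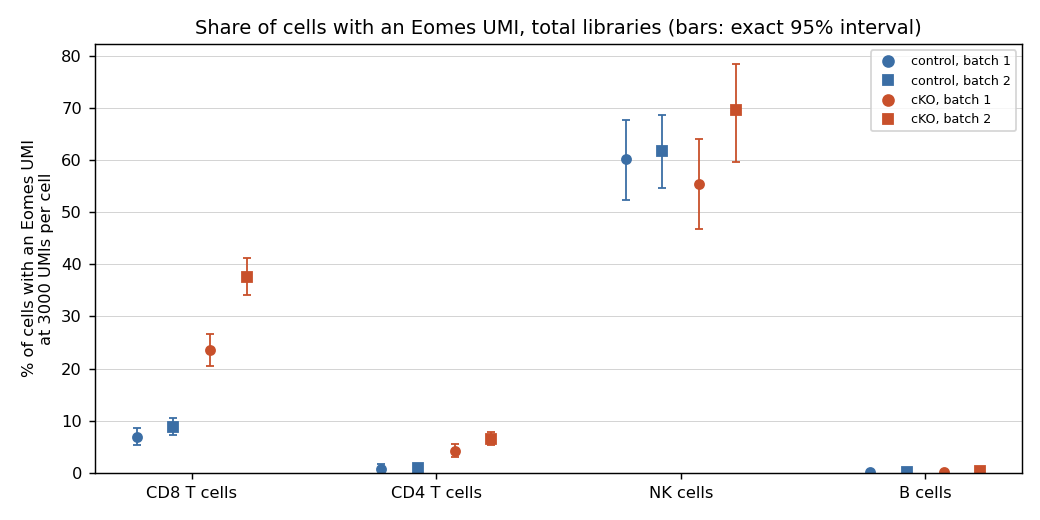
Share of cells with at least 1 Eomes UMI (percent) after thinning each cell to 3000 UMIs, by class and total library, with exact 95% binomial intervals that cover counting error only. Both cKO libraries lie above both control libraries in CD8 T cells (23.5% and 37.6% against 6.82% and 8.84%), and the NK cells overlap.

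CD8 T cells were also divided into 12 clusters, built without the 9 genes, and the levels were compared inside the 8 clusters that held at least 10 cells in every total library. Eomes was above both control values in both cKO libraries in 8 of these 8 clusters. The share of all genes that did so within a cluster was not computed, here or in CD4 T cells, so counts of clusters are a description. Some values rest on few Eomes UMIs, with 11 and 6 in control and 7 and 9 in cKO in cluster 4. In cluster 8 these were 3 and 12 in control and 20 and 24 in cKO. In cluster 0, led by Plaur, Igfbp4 and Itgae, Eomes was at 11.6 and 21.4 CPM in control and at 57.9 and 57.5 CPM in cKO. In cluster 1, led by Gm43698, Rgcc and Igfbp4, it was at 9.71 and 9.59 CPM in control and 45.3 and 58.3 CPM in cKO. In cluster 6, led by Hdac9, Ptprm and Myb, the values nearly met, at 160.3 and 159.5 CPM in control and 186.7 and 161.4 CPM in cKO. Klrd1 was below both control values in 7 of the 8 clusters and above them in 1, cluster 10, which is led by the NK receptor genes Klra7, Klra1 and Klre1. Il2rb was above in 4 clusters and below in 0, and Cd44 was above in 0 and below in 2. The higher Eomes and lower Klrd1 levels were thus present within clusters that both genotypes share, while the higher Cd44 level of the class was in no single shared cluster.

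The clusters themselves were filled unequally. Cluster 3, with Gzma, Klra8 and Efna5 among its leading genes, held 131 of 798 and 245 of 763 cKO CD8 T cells and 1 cell in each control library. It carried 33.0% and 49.3% of the Eomes UMIs and 61.3% and 61.1% of the Gzma UMIs of cKO CD8 T cells. Eomes stood at 217.6 and 291.4 CPM in its cKO cells, Il2rb at 381.1 and 371.4 CPM, and Gzma at 194.5 and 1463 CPM. Although NK receptor genes are among its leading genes, Cd3e was found in 92.9% of its cells and Ncr1 in 0.529%, and its NK markers summed to 129.7 CPM against 9798 CPM in NK cells. Cluster 2, led by Xist, 1700016L21Rik and Efna5, held 30.2% and 26.1% of cKO and 0.948% and 0.557% of control CD8 T cells, with Eomes at 98.8 and 140.9 CPM in cKO. Its part of the cells was nearly as large in the cKO library of batch 2, in which Xist was at 0.271 CPM in CD8 T cells.

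Gzmk lay mostly in other cells than Gzma. Cluster 11, led by Gzmk, Ier3, Coch and Maf, held 20 and 26 cKO CD8 T cells against 0 and 1 in control, and it carried 70.9% and 56.2% of the Gzmk UMIs of cKO CD8 T cells but 0.25% and 0.0157% of the Gzma UMIs. Eomes reached 460.4 and 597.2 CPM in these cells, and Ly6c2 was at 0 UMIs in both libraries, which allows up to 30.03 and 21.3 CPM. Cluster 5, led by Cd163l1, Gas7 and Il18rap, was filled mainly by control cells, with 7.87% and 9.48% of control CD8 T cells and 1.13% and 0.131% of cKO. Cluster 5 had Ly6c2 at 669.4 and 674.9 CPM, Il2rb at 383.9 and 310.6 CPM, Eomes at 83.8 and 92.0 CPM and Gzmk at 0 UMIs in both control libraries, which allows up to 3.40 and 2.88 CPM. The clusters whose markers scored as memory-like (5, 8 and 11) together held 11.2% and 13.4% of control and 8.77% and 11.3% of cKO CD8 T cells, which overlap. Most of these cells were in cluster 5 in control and in clusters 8 and 11 in cKO. This share changed direction with the clustering, since the difference of -2.26 percentage points became 5.77 at a lower resolution and 15.7 without centring within batch. Klrd1 hardly set the memory-like cells apart. In control it was at 240.2 and 259.1 CPM in the clusters that scored as naive and at 261.1 and 301.6 CPM in the memory-like ones. In cKO it was at 121.3 and 75.8 CPM and at 150.6 and 119 CPM.

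**Figure D3:**
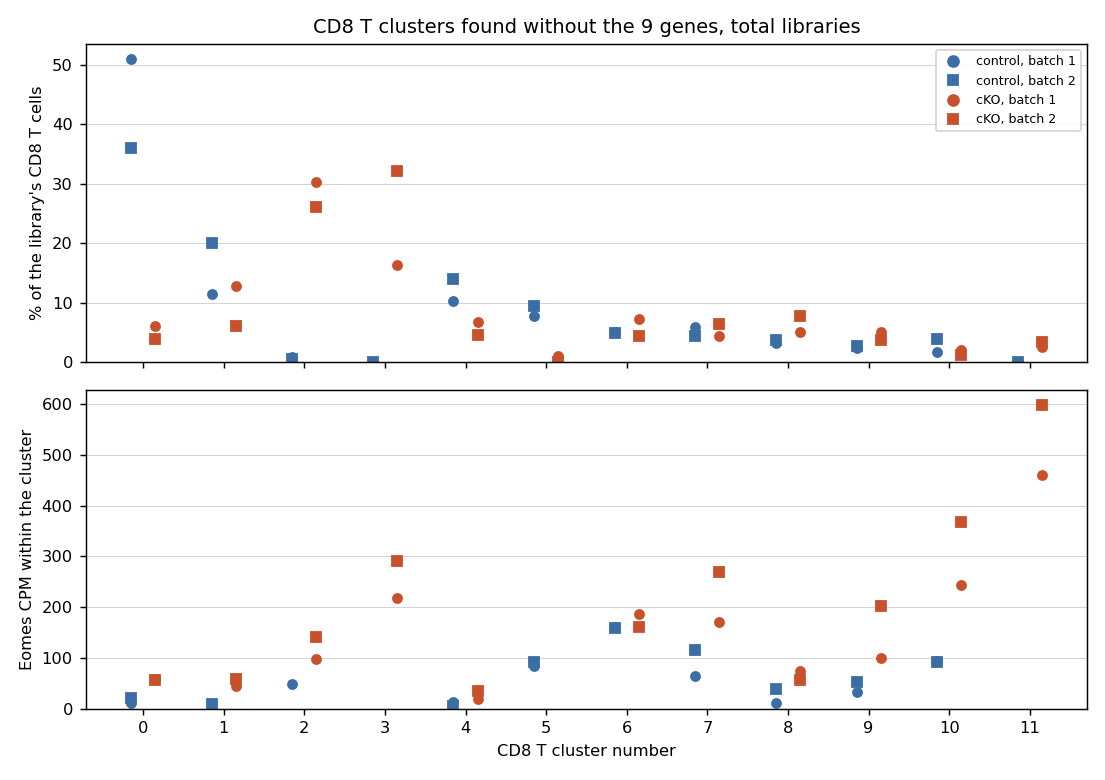
Share of CD8 T cells (percent) in each of the 12 CD8 clusters and the Eomes level (CPM) in those with at least 10 cells, by total library. Clusters 2, 3 and 11 are filled almost only by cKO cells and clusters 0 and 5 mainly by control cells, and Eomes is higher in cKO in 8 of the 8 clusters that both genotypes fill.

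In cKO CD8 T cells with an Eomes UMI, Gzmk stood at 29.7 and 28.0 CPM and Il2rb at 249.3 and 299.3 CPM, against 7.86 and 11.2 CPM and 146.4 and 163.4 CPM in cKO cells without one. In control, CD8 T cells with an Eomes UMI had Gzmk at 0.539 and 7.26 CPM, Il2rb at 192.4 and 203.8 CPM, Ly6c2 at 434.3 and 507.7 CPM and Klrd1 at 247.3 and 293 CPM. The cKO cells with an Eomes UMI had Ly6c2 at 299.2 and 194.7 CPM and Klrd1 at 131.3 and 95.9 CPM. Thus Klrd1 was lower in cKO CD8 T cells whether or not an Eomes UMI was found, since cKO cells without one had it at 127.0 and 87.1 CPM and control cells without one at 243.9 and 263.1 CPM.

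CD4 T cells shared some of these differences. Eomes, at lower levels than in CD8 T cells, was at 9.44 and 3.25 CPM in control and 20.5 and 29.3 CPM in cKO, 1.92 higher on the log2 scale (SE 0.436). This difference was 2.96 without the control library of batch 1, 1.39 without that of batch 2 and 3.10 with classes taken from cluster names alone. Cd44 was at 92.3 and 102.3 CPM in control and 206.6 and 175.8 CPM in cKO, and Il2rb was at 63.5 and 63.7 CPM in control and 120.9 and 154.2 CPM in cKO, differences of 0.97 (SE 0.251) and 1.11 (SE 0.252). Klrd1 was at 19.4 and 25.2 CPM in control and 4.23 and 1.78 CPM in cKO, and Prf1 at 16.8 and 16.9 CPM in control and 8.96 and 8.03 CPM in cKO, differences of -2.95 (SE 0.409) and -0.99 (SE 0.237), and the Klrd1 difference was -1.93 with cluster names alone. In CD4 T cells 3 of the 9 genes thus lay above in both cKO libraries and 2 lay below, among 11883 genes of which 22.4% lay above and 20.7% below. Gzma was at 2.64 and 4.26 CPM in control and 1.62 and 21.5 CPM in cKO, so its difference of 1.81 (SE 0.975) came from the cKO library of batch 2 and was -1.06 without it. Ly6c2, Gzmk and Gzmb overlapped and stood at 1.25 to 8.88 CPM. Gzmb was nevertheless higher in cKO within each batch (1.25 and 3.65 CPM in control, 2.61 and 5.33 CPM in cKO), with a difference of 0.78 (SE 0.601). Plasma cell markers in CD4 T cells summed to 40.95 and 55.7 CPM in control and 55.01 and 98.8 CPM in cKO, with 3 of 6 above in both cKO libraries and 1 at 0 in all. B cell markers summed to 74.5 and 119.6 CPM in control and 96.8 and 108 CPM in cKO, with 2 of 6 above and 1 below. The part of either in the CD4 T cell values was not tested.

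The share of thinned CD4 T cells with an Eomes UMI was 0.829% and 0.854% in control and 4.18% and 6.47% in cKO, above the B cell background in each. CD4 T cells lay in 11 clusters, and of the 8 with at least 10 cells in every total library Eomes was above in 6, although both control values were 0 in 3 of these. In clusters 2 and 5 the limit of 3 counts for these zeros lies above the cKO values, so the genotypes cannot be told apart there. In cluster 12 the cKO values rest on 2 Eomes UMIs in each library. Cluster 4, led by Efna5, Pdlim4 and Ly6c1, held 22.0% and 21.8% of cKO and 0.716% and 0.950% of control CD4 T cells, and it carried 44.2% and 62.0% of the Eomes UMIs of cKO CD4 T cells, at 45.9 and 95.7 CPM. Cd44 and Il2rb were high elsewhere. In cluster 2, led by Sostdc1, Gm47957 and Il4, Cd44 was at 452.7 and 275.9 CPM and Eomes at 5.66 and 1.16 CPM in cKO, and the cluster held 27.0% and 35.4% of cKO and 3.68% and 1.78% of control CD4 T cells. In cluster 5, which includes Foxp3 and Areg among its leading genes, Cd44 was at 249.9 and 280 CPM and Eomes at 0.811 and 4.71 CPM in cKO, with 18.5% and 23.3% of cKO and 2.66% and 2.97% of control CD4 T cells. The Eomes and the Cd44 of cKO CD4 T cells were therefore mostly in different clusters. Cluster 1, led by Igfbp4, Ly6c1 and St8sia6, held 68.9% and 65.2% of control and 13.5% and 3.925% of cKO CD4 T cells. It carried 87.9% and 80.65% of the Klrd1 UMIs and 88.4% and 85.5% of the Prf1 UMIs of control CD4 T cells. Inside it Prf1 was at 21.99 and 21.35 CPM in control and 19.5 and 15.5 CPM in cKO. Of the 8 clusters compared, Prf1 was below in 1 and above in 0, and Klrd1 below in 3 and above in 1.

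In NK cells, which depend on Eomes to mature, the Eomes levels of the genotypes overlapped. Eomes was at 336.8 and 367.7 CPM in control and 321.7 and 433.4 CPM in cKO, a difference of 0.10 (SE 0.324). Of the 8 genes that passed the filter on low counts in NK cells, 0 lay above in both cKO libraries and 2, Cd44 and Ly6c2, lay below, among 8263 genes of which 11.6% lay above and 11.2% below. Cd44 was at 226 and 233.1 CPM in control and 205.9 and 174.6 CPM in cKO, a difference of -0.27 (SE 0.309), which is smaller than its SE. Ly6c2 was at 192 and 185.6 CPM in control and 179.1 and 99.3 CPM in cKO, a difference of -0.43 (SE 0.345). Gzma was at 4852 and 5532 CPM in control and 5368 and 10120 CPM in cKO, so the cKO library of batch 2 was again the highest. Il2rb (698.3 to 775.1 CPM), Gzmb (269.6 to 474 CPM), Prf1 (684.1 to 916.4 CPM) and Klrd1 (956.6 to 1238 CPM) overlapped. Within each batch Gzmb (269.6 and 381.8 CPM in control, 358.3 and 474 CPM in cKO) and Prf1 (684.1 and 808.5 CPM in control, 758 and 916.4 CPM in cKO) were higher in cKO, with differences of 0.35 (SE 0.337) and 0.17 (SE 0.344). Gzma was also higher in cKO within each batch, with a difference of 0.58 (SE 0.449). Il2rb was lower within each batch (734.7 and 775.1 CPM in control, 698.3 and 735.8 CPM in cKO), with a difference of -0.07 (SE 0.335). Gzmk, which did not pass the filter, was at 9.69 and 5.14 CPM in control and 4.94 and 74.9 CPM in cKO. B cell markers in the NK class summed to 434.2 and 587.5 CPM in control and 866.4 and 794.3 CPM in cKO, with 5 of 6 above in both cKO libraries. Their part in the NK values was not tested.

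The rule that chose the genes used the total libraries, so the sorted YFP+ libraries allowed a test, although they came from the same batches and may hold cells of the same mice. The genes were also chosen with earlier results of these data known, so the test is not fully independent of that choice. They held few T cells, 139 and 27 CD8 T cells in control and 122 and 10 in cKO, from sums of 54958 to 890723 UMIs. Whether these T cells carried the YFP reporter was not tested. Eomes was at 28.5 and 38.7 CPM in control and 182.2 and 577.2 CPM in cKO, and rose by 3.39 on the log2 scale (SE 0.545, adjusted p = 0.000288, edgeR quasi-likelihood test with Benjamini-Hochberg adjustment over 5665 genes). The highest value came from 31 UMIs in a sum of 10 cells, of which 4 held an Eomes UMI. Gzmk was at 2.37 and 0 CPM in control, where the 0 allows up to 27.2 CPM, and 34.2 and 112 CPM in cKO (difference 4.29, SE 1.00, adjusted p = 0.0404 by the same edgeR test). These were 2 UMIs in control and 30 in cKO over both libraries, held by 1 and 0 control cells and by 5 and 2 cKO cells. The ratio was 18.8 per UMI of the class, with an exact 95% interval of 4.77 to 162. The interval covers counting error only and treats UMIs as independent, so it leaves out the spread between cells and between libraries. Of the 8 genes tested, Eomes and Gzmk passed, where 0.212% of all genes tested (12 of 5665) did. Gzmk, with 2 UMIs in control, met the filter on low counts only through its cKO libraries. It could be tested only because it was high there, so its adjusted p is given as a description.

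**Figure D4:**
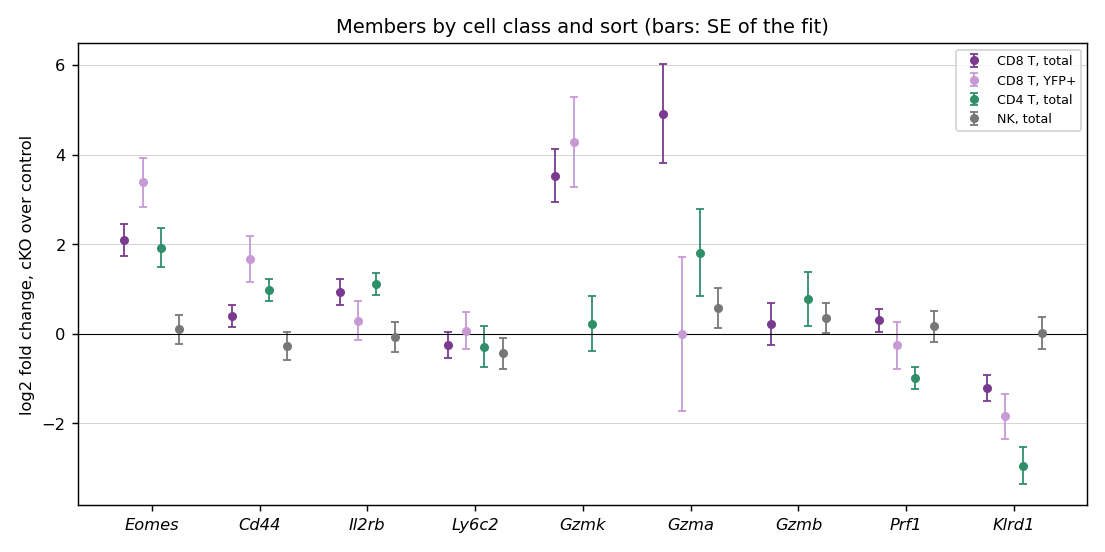
Difference between cKO and control (log2 fold change, cKO over control) of each of the 9 genes in CD8 T, CD4 T and NK cells of the total libraries and in CD8 T cells of the YFP+ libraries, with the SE of the fit as bars and genes under the filter on low counts left out. Eomes is at 2.10 in CD8 T, 1.92 in CD4 T and 0.10 in NK cells of the total libraries and at 3.39 in CD8 T cells of the YFP+ libraries, and Klrd1 is at -1.20, -2.95, 0.01 and -1.84.

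Both calls were lost when either control library was left out, in fits that assume the lone control library to vary as the cKO libraries do. Without the YFP+ control library of batch 1, which leaves 27 control cells, the adjusted p (edgeR) was 0.132 for Eomes and 0.997 for Gzmk, and without that of batch 2 it was 0.0758 and 0.479. With DESeq2 in place of edgeR, Eomes passed (adjusted p = 0.0023) and Gzmk did not (adjusted p = 1.00). Gzmk also lost its call with library size in place of TMM scaling (4.30, adjusted p = 0.0702, edgeR). With batch as a replicate block in edgeR the adjusted p was 2.06e-16 for Eomes and 0.00018 for Gzmk, and 63 genes were called in place of 12. That fit adds a batch term to the same few libraries. Little is then left to estimate the spread between libraries, so the size of its p-values is not read as strength of replication. Klrd1 was at 277.5 and 473.7 CPM in control and at 130.9 and 0 CPM in cKO, where the 0 came from 10 cells and allows up to 54.6 CPM, and its difference of -1.84 did not pass (adjusted p = 0.353, edgeR), but passed with the replicate block (-1.52, adjusted p = 1.07e-05, edgeR) and without the cKO library of batch 1 (adjusted p = 0.0020, edgeR), where only the 10 cells with 0 Klrd1 UMIs were left in cKO and the fitted difference is no bound. Cd44, at 38.0 and 9.67 CPM in control and 85.4 and 167.6 CPM in cKO, did not pass either (adjusted p = 0.550, edgeR), and passed with the replicate block (difference 1.45, adjusted p = 0.0100, edgeR). Il2rb, Ly6c2, Gzma and Prf1 overlapped, and Gzmb did not pass the filter on low counts. The antibody genes Igkc (1480 and 1479 CPM in control, 353 and 186 CPM in cKO) and Jchain (169.6 and 125.7 CPM in control, 27.0 and 18.6 CPM in cKO) were lower in the same CD8 T cell sums (adjusted p = 0.000288 and 0.00937, edgeR). The part of free antibody RNA in the results was not tested.

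In CD4 T cells of the YFP+ libraries, 114 and 14 in control and 145 and 17 in cKO, only Cd44 and Il2rb passed the filter on low counts and neither was called (adjusted p = 0.999 for both, edgeR), where 0.337% of 5633 genes were. Eomes had 2 and 0 UMIs in the control libraries and 19 and 5 in the cKO libraries, and it was not tested. NK cells of the YFP+ libraries numbered 37 and 10 in control and 25 and 0 in cKO, too few for a test, with Eomes at 262.8 and 205.4 CPM in control and 295 CPM in cKO batch 1.

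Across 11 cell classes of the total spleen, Eomes was highest in NK cells, at 357.7 ± 35.4 CPM (SD, n = 4 libraries of both genotypes, without scaling between libraries), and its range there did not reach that of any other class. T cells with Trdc, a gamma delta T cell receptor gene, came next at 150.3 ± 71.9 CPM, followed by CD8 T cells at 106.3 ± 83.2 CPM, NKT cells at 31.8 ± 5.89 CPM and CD4 T cells at 15.99 ± 12.2 CPM, and the ranges of each of these neighbours overlapped. Monocytes and macrophages were at 4.57 ± 2.65 CPM, plasma cells at 4.47 ± 4.38 CPM and conventional dendritic cells at 3.93 ± 2.34 CPM. Plasmacytoid dendritic cells (2.49 ± 4.98 CPM), B cells (0.663 ± 0.136 CPM) and erythroid cells and platelets (0.535 ± 1.07 CPM) came last, again with overlapping ranges. CD8 T cells were at a mean of 40.6 CPM in control and 172 CPM in cKO, between Trdc+ T cells (108.5 and 192.1 CPM) and NKT cells (34.7 and 28.9 CPM) in both genotypes. In Trdc+ T cells, too, both cKO libraries (127.3 and 256.9 CPM) were above both control libraries (116.4 and 100.7 CPM). B cells, at the level taken as free RNA, were also higher in cKO, at a mean of 0.563 CPM in control and 0.763 CPM in cKO. Gzma, Prf1 and Gzmb lay below their NK cell levels in CD8 T cells. Gzma was at a mean of 5141 CPM in NK cells and 16.01 CPM in CD8 T cells of control. In cKO these means were 7472 and 463.9 CPM, and the CD8 T cell mean rested on batch 2. Over both genotypes Prf1 was at 776.5 ± 70.0 CPM in NK and 48.4 ± 6.96 CPM in CD8 T cells. Gzmb was at 363 ± 70.9 and 8.99 ± 3.89 CPM (SD, n = 4 libraries).

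Il2rb was likewise highest in NK cells, at 723.6 ± 29.4 CPM, but NKT cells came next at 608.8 ± 27.4 CPM, followed by Trdc+ T cells at 417.8 ± 85.6 CPM and CD8 T cells at 173.5 ± 66.9 CPM, and the first 3 did not overlap with their next neighbour. Klrd1 was highest in NK cells at 1072 ± 115 CPM and then lay between 184.1 and 375.9 CPM in Trdc+ T cells, plasmacytoid dendritic cells, NKT cells, conventional dendritic cells and CD8 T cells, where each range overlapped with the next. Cd44 and Ly6c2 were not led by T or NK cells. Cd44 was highest in monocytes and macrophages (693.9 ± 65.1 CPM) and low in CD8 T cells (57.4 ± 10.9 CPM), whose range overlapped with that of B cells, and Ly6c2 was highest in plasmacytoid dendritic cells (1286 ± 264 CPM). Gzmk was low throughout, with 23.7 ± 34.2 CPM in NK cells and 11.2 ± 11.1 CPM in CD8 T cells, and these ranges overlapped.

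**Figure D5:**
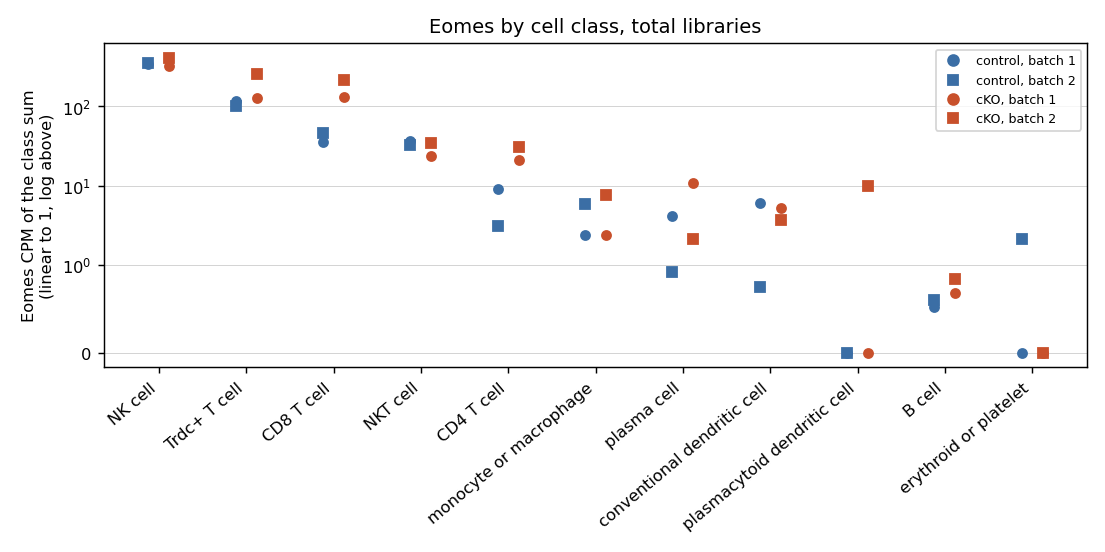
Eomes level (CPM of the class sum, on an axis that is linear up to 1 CPM and logarithmic above) in the cell classes of the 4 total libraries, ordered by mean, 1 point per library coloured by genotype. NK cells lead at a mean of 357.7 CPM with both genotypes mixed. In Trdc+, CD8 and CD4 T cells the cKO points lie above the control points, as they also do in B cells, at means of 0.563 CPM in control and 0.763 CPM in cKO.

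The genes whose levels over these 44 class-by-library sums were most like those of Eomes, by Pearson's r of log2(CPM + 1) among 13100 genes, were Samd3 (r = 0.936), Il2rb (0.914), Baiap3 (0.909), Gm33104 (0.894) and the kinase gene Txk (0.882). Il2rb was most like Samd3 (0.963) and Fasl (0.958), which encodes a death ligand, and Klrd1 most like Cd7 (0.922) and Il12rb2 (0.885). Gzma was most like the NK receptor genes Klre1 (0.895) and Klra8 (0.881), Gzmb like Klra8 (0.904) and Adamts14 (0.897), and Prf1 like Fhl2 (0.887) and Gm43647 (0.886). The nearest genes were less close for Cd44 (Mapkapk2 at 0.840 and Trf at 0.831), Ly6c2 (Gas7 at 0.787 and Ccpg1 at 0.755) and Gzmk (Paqr4 at 0.694 and Tafa3 at 0.646). These are correlations over sums that share 4 libraries and 11 classes and differ widely in depth, and they are given as a description.

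The other genes of these pathways were taken from 5 lists with 92 genes in all, and tested with edgeR over all genes. The lists were chosen with earlier results of these data known, which limits what their adjusted p-values show. In CD8 T cells of the total libraries 5 of 11476 genes (0.0436%) passed an adjusted p of 0.05, and 0 of them were in a list, while 674 genes of all had an unadjusted p under 0.05. Among the 5 were Maf, Tspan9 and 1700016L21Rik, which rose, and Wnt5b, which fell, named here after their values were seen. Of 29 further memory and effector genes tested, one of the lowest p values belonged to the granzyme gene Gzmm (12.2 and 14.5 CPM in control, 34.6 and 74.9 CPM in cKO, adjusted p = 0.158, edgeR). Tbx21, the T-box relative of Eomes, was at 14.5 and 19.99 CPM in control and 13.7 and 22.9 CPM in cKO, a difference of 0.09 (SE 0.316). The median of the memory and effector list was 0.22 on the log2 scale beside -0.005 for all genes.

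Of 18 naive T cell genes in CD8 T cells, the median was -0.29, with Igfbp4 at 125.4 and 124.8 CPM in control and 37.6 and 19.3 CPM in cKO (adjusted p = 0.121, edgeR) and Dapl1 at 278.4 and 368.2 CPM and 156.2 and 130.9 CPM (adjusted p = 0.298, edgeR). Of 19 cytokine receptor and STAT genes the median was 0.04, with Cish, a feedback inhibitor of cytokine receptors, at 3.95 and 5.74 CPM in control and 8.004 and 46.5 CPM in cKO, and Il15ra at 3.63 and 7.12 CPM and 10.6 and 14.6 CPM (adjusted p = 0.402 and 0.467, edgeR). Of 12 activation and exhaustion genes the median was 0.77, with Tnfrsf4 at 1.39 and 2.18 CPM in control and 8.31 and 14.8 CPM in cKO and Tigit at 9.07 and 8.39 CPM and 17.9 and 22.9 CPM (adjusted p = 0.118 and 0.205, edgeR). Of 10 NK receptor genes the median was -0.10, with Klra8 at 0.534 and 5.40 CPM in control and 16.0 and 55.0 CPM in cKO and the signalling adaptor gene Tyrobp at 5.55 and 11.03 CPM and 3.08 and 4.08 CPM (adjusted p = 0.268 and 0.614, edgeR). With batch as a replicate block 787 genes were called in CD8 T cells, among them 10 memory and effector genes higher and 4 lower, 1 naive gene higher and 6 lower, 4 cytokine receptor genes higher, 5 activation genes higher, and 1 NK receptor gene in each direction. Gzmm, Igfbp4, Dapl1, Il15ra, Tnfrsf4, Tigit, Klra8 and Tyrobp passed in that fit and Cish did not (adjusted p = 0.125, edgeR).

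In CD4 T cells of the total libraries 396 of 11883 genes (3.33%) were called. Of 27 memory and effector genes tested, 3 rose and 2 fell. Zeb2, a transcriptional repressor of effector lymphocytes, rose from 4.31 and 5.68 CPM in control to 24.0 and 31.7 CPM in cKO (adjusted p = 0.0091, edgeR), Klrg1, an inhibitory receptor, from 5.69 and 9.34 to 31.5 and 30.1 CPM (adjusted p = 0.0155, edgeR), and Bhlhe40 from 18.1 and 31.1 to 100.9 and 154.1 CPM (adjusted p = 0.0193, edgeR). Tbx21 fell from 16.4 and 10.96 CPM to 3.48 and 3.09 CPM (adjusted p = 0.0222, edgeR), and Ly6c1 from 81.8 and 96.0 to 39.3 and 33.5 CPM (adjusted p = 0.0364, edgeR). Eomes was higher in the same class sums, and whether Tbx21 fell in the cells with Eomes was not tested. The median of the list was -0.26 beside -0.02 for all genes. Of 12 activation and exhaustion genes 4 rose and 0 fell, with a median of 1.21. These were the inhibitory receptor genes Pdcd1 (29.2 and 21.3 CPM to 159.5 and 220.4 CPM, adjusted p = 0.0075, edgeR) and Tigit (18.5 and 14.6 to 58.6 and 82.4 CPM, adjusted p = 0.0144, edgeR) and the costimulatory genes Tnfrsf9 and Tnfrsf4 (adjusted p = 0.0200 and 0.0438, edgeR).

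Of 18 naive T cell genes in CD4 T cells 3 fell and 0 rose, with a median of -1.08. Dapl1 fell from 166.3 and 272.2 CPM to 52.6 and 34.7 CPM, Igfbp4 from 330.5 and 355.9 to 109.3 and 53.6 CPM and Actn1 from 236.9 and 239.1 to 91.4 and 45.2 CPM (adjusted p = 0.0197, 0.0325 and 0.0458, edgeR). With batch as a replicate block 3472 genes were called in CD4 T cells, 8 memory and effector genes in each direction, 7 activation genes higher and 1 lower, and 1 naive gene higher and 9 lower, but the calls of Dapl1, Igfbp4 and Actn1 were lost (adjusted p = 0.249, 0.215 and 0.174, edgeR). Without the cKO library of batch 2 the calls of Igfbp4, Actn1 and Ly6c1 were lost, with values from 0.0588 to 0.204 for their adjusted p (edgeR). With classes taken from cluster names alone the calls of Zeb2 (adjusted p = 0.0998), Tbx21 (0.0522), Ly6c1 (0.0597), Igfbp4 (0.0511) and Actn1 (0.0587, all edgeR) were lost. With a gate on UMIs alone those of Tbx21 and Ly6c1 were lost (adjusted p = 0.0734 and 0.0613, edgeR), as was that of Ly6c1 without cells with a B cell UMI (0.0589) and that of Actn1 with library size alone (0.0519). None of 20 cytokine receptor and STAT genes passed in the fit without the block (lowest p for Jak3, difference 0.90, and Il21r, difference -0.88, adjusted p = 0.152 and 0.154, edgeR), while 4 were higher and 7 lower with it. None of 4 NK receptor genes passed in either fit, and the lowest p values were those of Cd244a and Klrb1c (adjusted p = 0.599 and 0.621, edgeR).

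In NK cells 3 of 8263 genes (0.0363%) were called, while 151 had an unadjusted p under 0.05, and 0 of the list genes passed with edgeR among 29 memory and effector, 13 naive, 17 cytokine receptor, 7 activation and 12 NK receptor genes tested. The list medians lay between -0.24 and -0.01, beside -0.01 for all genes. Tbx21 was at 327.2 and 261.3 CPM in control and 253.5 and 188.1 CPM in cKO, and Xcl1, a chemokine gene with the lowest p of its list, was at 210.3 and 1017 CPM in control and 119.4 and 275.4 CPM in cKO (adjusted p = 1.00, edgeR). With batch as a replicate block 100 genes were called, of which Xcl1 (adjusted p = 5.98e-20, edgeR) and the naive gene Tcf7 (142.2 and 182.1 CPM in control, 80.4 and 123.4 CPM in cKO, adjusted p = 0.0052, edgeR) were in the lists and were lower in cKO. The block leaves little to estimate the spread between libraries here too.

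In the YFP+ libraries the same lists were tested in the few T cells. In CD8 T cells, of 18 naive, 14 cytokine receptor and 6 activation genes 0 passed, with Igfbp4 the nearest (117.4 and 222.3 CPM in control, 39.9 and 0 CPM in cKO, adjusted p = 0.0828, edgeR). In CD4 T cells Bhlhe40 rose (21.2 and 32.7 CPM to 106.6 and 258 CPM) and Igfbp4 (379.9 and 522.9 to 109.3 and 56.1 CPM) and Dapl1 (189.1 and 392.2 to 56.0 and 56.1 CPM) fell (adjusted p = 0.0241, 0.0199 and 0.0296, edgeR), among 12 memory and effector and 17 naive genes tested. With batch as a replicate block the genes called in CD8 T cells included 4 naive genes, which were lower in cKO, and the chemokine receptor gene Cxcr3, which was higher (26.1 and 29.0 CPM in control, 79.7 and 37.2 CPM in cKO, adjusted p = 0.0457 with the block and 0.911 without it, edgeR). With the block 1 memory and effector gene and 1 activation gene were higher and 4 naive genes lower in CD4 T cells, where 33 genes of all were called in place of 19. The CD4 T cell calls of Bhlhe40, Igfbp4 and Dapl1 were lost with DESeq2. Bhlhe40 and Igfbp4 were also lost without either cKO library, Dapl1 without either cKO library, without control batch 2 or without the filter on low counts (adjusted p = 0.0747, edgeR), and Bhlhe40 without control batch 1. No NK receptor gene passed the filter on low counts in these cells.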

How the data were processed

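Single-cell RNA from mouse spleen was analysed in 8 libraries made with a droplet kit that reads the 3′ end of transcripts. The authors deposited whole-number counts of UMIs per gene and cell, with no normalization. The submitters' processing notes name GRCm38 and mm10, and for the aligner and annotation nothing was found (not given in the sources used here). Cells with fewer than 201 UMIs, fewer than 101 genes or over 10% mitochondrial UMIs were removed, as in the study. The 9 genes and all lists were chosen with earlier results of these data known.

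Cells were clustered with custom code in Python 3.11.15 and the Leiden method of igraph (2000 variable genes, 30 principal components, 20 neighbours, resolution 1, genes centred within batch). The 9 genes and other list and antibody genes, 846 of 32285, were left out of the clustering. Clusters of T cells were pooled. CD8 T cells were those with a Cd8a or Cd8b1 UMI and no Cd4 or Trdc UMI, CD4 T cells had a Cd4 UMI and neither of the others, and NK cells were the clusters with NK markers. This per-cell rule was set after the clusters were seen, since cluster names alone placed memory CD8 T cells in a cluster with gamma delta markers. A simulated-doublet score from scanpy 1.11.5 marked 0.997% to 2.89% of cells per library, with a shared threshold for the YFP+ libraries. Marked cells were left out only in an alternative.

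UMIs were summed per class and library and tested between cKO and control with edgeR 4.0.16 (R 4.3.3, TMM scaling, filterByExpr, quasi-likelihood test, Benjamini-Hochberg adjustment over all genes, 0.05), and the scripts were tested on simulated data. There the test recovered 21%, 24% and 29% of 2-fold changes in CD8 T, NK and CD4 T cells of the total libraries. For 4-fold changes it recovered 89%, 84% and 87%. A gene or list without a call is therefore not shown to be unchanged. DESeq2 1.42.0 served as an alternative. Class sums held 707505 to 12485316 UMIs in the total libraries, and values rest on 2 libraries a group, each a pool of mice. No T or NK class of the YFP+ libraries reached the planned 20 cells in every library, so 10 was used, a choice made after the data were seen, and NK cells were not tested there. The batch number in the labels is shared by the groups and pairs the libraries. Deviations from the group means correlated between libraries of the same number at 0.612 in CD8 T, 0.444 in NK and 0.570 in CD4 T cells of the total libraries and at 0.150 and 0.107 in CD8 T and CD4 T cells of the YFP+ libraries. The fit with the batch as a replicate block is given beside the results it changes. With 2 libraries a group, the added batch term leaves little to estimate the spread between libraries. Its p-values and counts of called genes are therefore given as an alternative only.

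All 9 genes are named. Of each list, up to 4 called genes per direction and class with the lowest adjusted p are named, or, with none called, up to 2 with the lowest p. Genes alike a member are the 5 (Eomes) or 2 (others) with the highest Pearson's r among genes with a mean of at least 5 CPM in 1 class. Binomial intervals are exact and cover 95% of counting error only, and a count of 0 was given a limit of 3 counts. Other alternatives were scaling by library size, no filter on low counts, leaving out each library, other clusterings, cell filters and class definitions, and leaving out cells with a B cell UMI. Results of some genes that these rules would name are not reported here.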

Additional observations from a re-analysis of the deposited data

Results flagged for a closer look

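The Cd44 values lay in different directions between classes of the total libraries, although the NK cell difference was smaller than its SE. Cd44 was 0.39 higher in cKO on the log2 scale in CD8 T cells (0.391, SE 0.240) and 0.97 higher in CD4 T cells (0.974, SE 0.251). It was lower in NK cells, with a difference of -0.27 (-0.269, SE 0.309). In each class both cKO libraries lay on the same side of both controls, as 11.2% of all genes did on the lower side in NK cells. The difference between the classes was not tested.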

How the results depend on the processing

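Each group had 2 pools. The genes called in CD8 T cells of the total libraries were 5, and 121 with DESeq2, 3 with library size alone, 400 without the filter on low counts, 787 with the replicate block, 65 with a gate on UMIs alone, 68 with cluster names alone, 35 without cells with a B cell UMI, and 63 to 407 with a library left out. In NK cells they were 3, and 23 without the filter, 100 with the replicate block, 9 to 17 with a library left out, and 0 by edgeR with the gate, with doublets removed and without cells with a B cell UMI (58, 115 and 53 genes at an unadjusted p under 0.05, and 3 by DESeq2 on the full class). In CD4 T cells they were 396, and 655 with DESeq2, 1276 without the filter, 3472 with the replicate block and 424 to 1242 with a library left out. In the YFP+ libraries CD8 T cells gave 12, and 2 with DESeq2, 63 with the replicate block and 0 to 24 with a library left out, the 0 by edgeR without control batch 2 (135 genes at an unadjusted p under 0.05). CD4 T cells there gave 19, and 0 with DESeq2 (79 genes at an unadjusted p under 0.05, with 19 by edgeR), 33 with the replicate block and 9 to 41 with a library left out.

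Eomes in CD8 T cells of the total libraries was 2.10, and 3.50 with cluster names alone. In the YFP+ libraries Eomes was 2.60 to 4.2 with a library left out and lost its call without either control (adjusted p = 0.132 and 0.0758, edgeR), over a range from 2.06e-16 to 0.132. Gzmk there was 3.92 to 7.06 with a library left out and lost its call without either control, with DESeq2 (4.93) and with library size alone (4.30). Gzmk had no value without cKO batch 1, where it did not pass the filter. The difference in memory-like share was -2.26 percentage points, and 5.77 and 2.23 at resolutions 0.5 and 1.5, 15.7 without centring within batch and -0.06 without cells with a B cell UMI (-0.0605). The difference in the share of CD8 T cells with an Eomes UMI was 22.7 percentage points, and 36.7 unthinned. Of 406 other values of the members, 370 moved by less than the spread between libraries and 36 by more, and of 223 values of named list genes 193 kept their side of the threshold and 30 lost their call. The cause was not tested. The planned fits of YFP+ classes with 20 cells, and their alternatives on other clusterings, cell filters and class definitions, were not run. In the YFP+ libraries the replicate block added calls of Klrd1 and Cd44 in CD8 T cells and changed no other call of a member.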
